A study of Botryllus schlosseri with 27 samples.

Results

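Colonies of the SB825 line were compared with colonies of the SMG line at the same ages, to find which transcripts set the 2 lines apart at every age and which did so at some ages only. The comparison used 18 of the 27 libraries of the series, 3 for each line and age, and each set of 3 was added up, which gave 6 of the 9 sums. Of 50106 contigs, which are assembled stretches of expressed sequence that stand in for genes, 30308 reached 1 CPM or more in at least 3 of the 6 sums and were kept, where CPM is a count scaled to a common library size. The SB825 colonies were sampled at 4 months (g3), 2 years (g2) and 3 years (g1), and the SMG colonies at the same 3 ages. By the description of the series, in both lines the 2-year-old colony was an offspring of the 3-year-old one and the 4-month-old colony an offspring of the 2-year-old one, so age and generation changed together and cannot be told apart. Both are wild-type lines raised in the laboratory, and RNA came from whole colonies at one stage of the budding cycle. The count table names the 4-month SMG libraries SMGO and the labels name them SMG, and they were taken as the SMG line, though whether the names mark one family was not tested. The study's methods give SMGO as a genotype at both 4 months and 3 years. A single genotype name was attached to each set of 3 libraries, so each sum stood for 1 colony here and the colony was the replicate.

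*Botryllus schlosseri* is a colonial tunicate, an invertebrate chordate, in which genetically identical bodies called zooids share a common gelatinous tunic and a common blood system. The zooids are replaced by new buds in a repeating cycle, and a colony is a hermaphrodite that can carry testes and eggs in its zooids. A whole-colony library therefore mixes gut, gonad, muscle, blood and vessel cells, and in such bulk samples fewer cells of a type and less RNA per cell cannot be told apart.

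The 6 sums held 109038294 to 117766164 reads. The composition of the reads differed between the lines, since the 100 most abundant contigs of each colony took 24.96% of the reads at 4 months, 22.9% at 2 years and 34.0% at 3 years in SB825, against 24.4%, 55.7% and 48.9% at those ages in SMG. The most abundant contig was CAP3_round1_contig_6491, which had no homolog name among those read. It had 15836 CPM at 4 months, 15588 CPM at 2 years and 31915 CPM at 3 years in SB825, against 12482, 84999 and 61393 CPM in SMG. The SMG colonies of 2 and 3 years thus stood above every SB825 colony in this contig and the 4-month SMG colony below all of them. Values were scaled by edgeR's TMM factors, which correct for such a shift. Without them, that is with library totals alone, the median contig moved to a log2 difference (SB825 minus SMG) of 0.40 at 4 months, 0.84 at 2 years and 0.39 at 3 years, against 0.09, -0.02 and -0.01 with TMM.

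The 4-month SMG colony stood apart from all others. The distance between 2 colonies was taken as the root mean square of their log2 differences in CPM + 0.5 over the kept contigs. Between SB825 and SMG it was 1.67 at 4 months, 1.13 at 2 years and 1.05 at 3 years. Within SB825 the 3 pairs of ages lay 0.67 to 0.94 apart. Within SMG the colonies of 2 and 3 years lay 0.67 apart, but the 4-month colony lay 1.43 and 1.57 from them, farther than either older SMG colony lay from the SB825 colony of its own age and not far from its 1.65 to 1.67 from the SB825 colonies. In SMH, the other line of the series, the 4-month colony lay 0.93 and 0.98 from the colonies of 2 and 3 years. The name SMGO in the count table leaves another family possible for the 4-month SMG colony, though the study's methods use that name at 3 years as well. Whether family, age or generation goes with the distance of the 4-month SMG colony cannot be told apart. The 3 libraries of the 4-month SMG colony also differed most among themselves, with a chi-square per degree of freedom of 76.3 over read pairs, against 6.99 to 32.9 in the 5 other colonies. As a root mean square log2 difference the gap was small. The spread between libraries was 0.208 to 0.330 in the 5 other colonies, highest in SB825 at 3 years, against 0.358 in this colony. No read fell on 1392 kept contigs in this colony, against 89 to 183 in the other 5, and 334 contigs with 1 CPM or more in all other sums had no read here. Results are therefore given with and without 4 months.

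**Figure D1:**
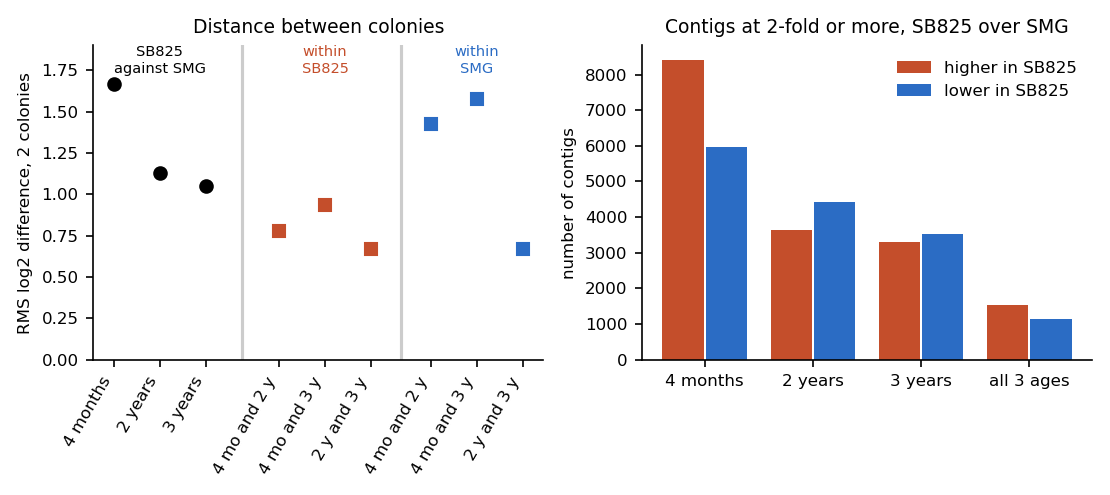
Left, the root mean square log2 difference between 2 colonies (y axis), for SB825 against SMG at each age (black circles) and for pairs of ages within SB825 (orange squares) and within SMG (blue squares); the 3 highest SB825 or SMG points, at 1.43 to 1.67, all involve the 4-month SMG colony. Right, the number of contigs with a 2-fold or larger line difference at each age and at all 3 ages, higher in SB825 (orange) or lower in SB825 (blue), with 8394 and 5972 contigs at 4 months against 1537 and 1135 at all 3 ages.

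A line difference that was the same at every age was tested with edgeR's quasi-likelihood test on the 6 sums with age as a term. Standard errors of the fold changes were derived from the test's F values. Among 30308 contigs, 0 passed the 10% false discovery rate, a share called of 0%, and the smallest Benjamini-Hochberg adjusted p was 0.143. An unadjusted p under 0.05 was found for 4602 contigs, or 15.2%, of which 2303 were higher and 2299 lower in SB825. The count depended on the ages and on the tool. Without the 4-month colonies edgeR called 1510 contigs, 773 higher and 737 lower in SB825, and DESeq2 on the 6 sums called 5120. With library totals alone 550 were called, 70.9% of them higher in SB825. For a single contig an exact permutation test could not go below p = 0.25 when lines were exchanged within ages, nor below 0.10 without pairing.

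By size, 2672 contigs differed by 2-fold or more in the same direction at all 3 ages, or 8.82% of those kept. Of these, 1537 were higher in SB825 (5.07% of those kept) and 1135 were lower (3.74%). The fold was measured on log2(CPM + 0.5), which understates the change of contigs with low values. In 2363 of the 2672 the 9 SB825 libraries did not overlap the 9 SMG libraries, which was so in 5116 (16.9%) of all kept contigs, and 247 contigs reached 8-fold at every age, 133 higher and 114 lower in SB825. The split by direction depended on the scaling, since with library totals alone 83.7% of such contigs were higher in SB825, against 57.5% with TMM. The line differences of the older ages were partly found again at 4 months. Of 1869 contigs at least 2-fold higher in SB825 at both 2 and 3 years, 1537 (82.2%) were so at 4 months and 40 were 2-fold the other way. Of 2157 that were lower in SB825 at both older ages, 1135 (52.6%) were lower at 4 months and 21.0% were 2-fold higher. Among all kept contigs 27.7% were 2-fold higher and 19.7% were 2-fold lower in SB825 at 4 months. No test of the difference between 82.2% and 52.6% was made.

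**Figure D2:**
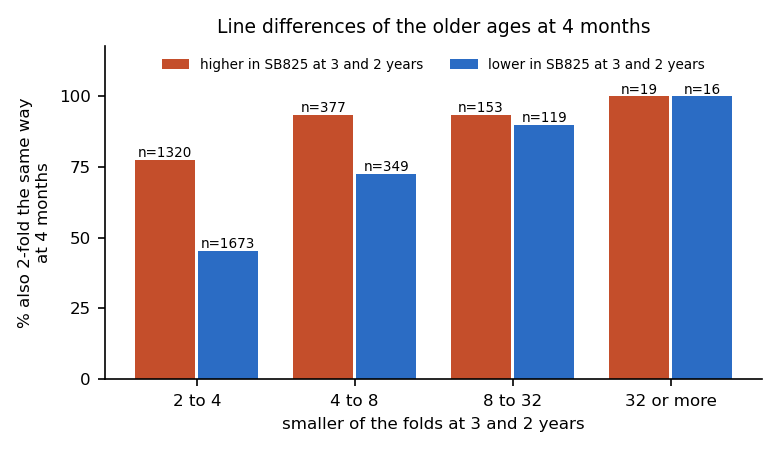
Bars give the share of contigs with a line difference at both 2 and 3 years that also differed 2-fold the same way at 4 months (y axis, percent), by the smaller of the folds at 2 and 3 years (x axis), for contigs higher (orange) and lower (blue) in SB825; n is the number of contigs. The share is 77.5% and 45.4% at 2- to 4-fold and 100% in both directions at 32-fold or more, where 19 and 16 contigs were found.

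This share grew with the size of the difference. At 2- to 4-fold it was 77.5% of 1320 contigs higher in SB825 and 45.4% of 1673 lower in SB825. At 8- to 32-fold it was 93.5% of 153 and 89.9% of 119, and at 32-fold or more all 19 and all 16 contigs differed the same way at 4 months. Across the 30308 contigs the line differences of 2 and 3 years had a Pearson correlation of 0.63, those of 2 years and 4 months of 0.53, and those of 3 years and 4 months of 0.36. Contigs are not independent replicates, and each pair of ages shares the 2 lines and the parent and offspring relation, so these values are descriptive. When the sum of squares of the 6 sums was divided between its sources, line took 41.8%, age 34.5% and the dependence of line on age 23.7%. Without 4 months the shares were 68.3%, 16.1% and 15.6%.

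Ranked by the smallest log2 difference of CPM + 0.5 over the 3 ages, the first 3 contigs in each direction were near presence or absence. They had no homolog name among those read, which cover a part of the contigs. Bot_rep_c35929 had 0, 0.055 and 0.115 CPM at 4 months, 2 years and 3 years in SB825, against 1216, 568 and 1453 CPM in SMG. Bot_c20675 had 0, 0.014 and 0.099 CPM in SB825, against 266, 136 and 225 CPM in SMG. Bot_c5431 had 0.102, 0.055 and 0.099 CPM in SB825, against 132, 51.2 and 44.5 CPM in SMG. In each of these every SMG library lay far above every SB825 library, and the log2 fold changes were -14.44 ± 1.71, -12.90 ± 1.47 and -9.66 ± 0.54 (SE, 3 sums per line), all with an adjusted p of 0.143 in edgeR's test. In the other direction CAP3_round1_contig_8131 had 50.0, 98.0 and 82.5 CPM at 4 months, 2 years and 3 years in SB825, against 0, 0.155 and 0.084 CPM in SMG. CAP3_round1_contig_5381 had 147, 172 and 80.4 CPM in SB825, against 0, 0.439 and 0.566 CPM in SMG. Bot_rep_c45627 had 63.9, 34.0 and 37.2 CPM in SB825, against 0, 0.077 and 0.126 CPM in SMG. Without 4 months all 6 contigs passed, with an adjusted p of 0.0895 in edgeR's test, and over the alternatives tried the adjusted p of these contigs ran up to 0.754.

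In 75 contigs no SMG library had a read while all 3 SB825 sums had 1 CPM or more, and in 39 contigs the lines were exchanged. A count of 0 allows up to 3 read pairs, which over the 3 sums of a line is 0.0213 CPM in SMG and 0.0148 CPM in SB825, for counting error only. Counts throughout are of reads mapped to an assembly of expressed sequences, and whether reads of both lines mapped equally well was not tested. Bot_c19725, chosen after its values were seen as were the next 3 contigs, had 37.98, 36.6 and 23.8 CPM at 4 months, 2 years and 3 years in SB825 and no read in SMG, at least 1562-fold higher in SB825. Bot_c5263 had 52.8, 16.7 and 21.1 CPM in SB825, at least 1425-fold higher. Bot_c4809 had no read in SB825, against 87.4, 50.0 and 34.8 CPM in SMG, and was at least 4002-fold lower in SB825. Bot_rep_c35104 had no read in SB825 either, against 61.0, 18.7 and 22.9 CPM in SMG. SMH, the other line of the series, divided these contigs. Of the 75 without a read in SMG, 20 had no read in SMH and 15 had 1 CPM or more at every SMH age, and of the 39 without a read in SB825 the numbers were 8 and 11. Among all 2672 contigs with a 2-fold difference at every age, the 3 SMH sums lay nearer SB825 in 24.4%, nearer SMG in 36.6% and on both sides in 39.0%.

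Homolog names were known for 593 of the kept contigs. They come from the study's list of contigs that differed with age in these same libraries, so the named contigs are not a sample of all contigs. Of the 593, 17 were 2-fold higher in SB825 at all 3 ages and 7 were lower, together 4.05%, against 8.82% of all contigs. Described first are the 12 named contigs in each direction whose smallest difference over the 3 ages, of one sign, was largest. All 12 higher and 7 of the 12 lower contigs reached 2-fold at every age.

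Cytoplasmic actin (CAP3_round1_contig_6729), a subunit of the microfilaments that shape and move cells, had, of the named contigs, the largest difference at the age where its lines were closest. It had 8.73 CPM at 4 months, 7.79 CPM at 2 years and 7.05 CPM at 3 years in SB825, against 414, 137 and 145 CPM in SMG. The 9 SB825 libraries spanned 6.47 to 10.4 CPM and the 9 SMG libraries 114 to 419 CPM, with no overlap. The log2 fold change was -4.68 ± 0.48 (SE), with an adjusted p of 0.143 in edgeR's test on sums and 0.0895 without 4 months, and it passed under 8 of 15 alternatives, whose adjusted p ran from 2.01e-18 to 0.704. SMH had 474, 236 and 44.2 CPM, nearer on the log scale to SMG than to SB825 at each age. The difference was called at each age when libraries were compared within ages, and its size depended on age, with an adjusted p of 8.96e-06 for the interaction. Another kept contig with a cytoplasmic actin name (Bot_rep_c50865) did not differ 2-fold in the same direction at every age, so the difference is that of this contig.

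Pentraxins are secreted proteins that bind ligands in a calcium-dependent way, and the neuronal members are known from mammalian synapses. Neuronal pentraxin-2 (Bot_c21592) had 1.903 CPM at 4 months, 26.1 CPM at 2 years and 12.5 CPM at 3 years in SB825, against 0, 0.077 and 0.063 CPM in SMG. Neuronal pentraxin-1 (Bot_c4886) had 1.71, 31.3 and 16.9 CPM in SB825, against 0, 0 and 0.021 CPM in SMG, where 2 reads in all were counted. Both had their lowest SB825 level at 4 months and still did not overlap SMG. Another contig with the name Neuronal pentraxin-2 (Bot_rep_c35654) went the other way, with 0, 1.27 and 2.89 CPM in SB825, against 4.61, 13.6 and 22.98 CPM in SMG. Of 102 names carried by 2 or more kept contigs, this was the single name with a contig held in each direction. The log2 fold changes were 8.25 ± 0.72, 10.86 ± 1.07 and -4.50 ± 1.69 (SE), with adjusted p of 0.143, 0.143 and 0.345 in edgeR's test. In Bot_rep_c35654 1 library held 474 of the 504 SMG reads at 4 months and another 314 of the 352 SB825 reads at 3 years, and its log2 fold change was -3.56 without replicate 1 and -5.62 without replicate 3. For Neuronal pentraxin-1 it was 12.90 without replicate 2.

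Aquaporin-8 (Bot_c7372), a channel for water in mammalian epithelia, had 0.842 CPM at 4 months, 16.4 CPM at 2 years and 7.88 CPM at 3 years in SB825 and no read in any of the 9 SMG libraries. Over the 3 ages together it was at least 402-fold higher in SB825. SMH shared both states, with 9.33 CPM at 3 years and no read at 2 years and 4 months.

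**Figure D3:**
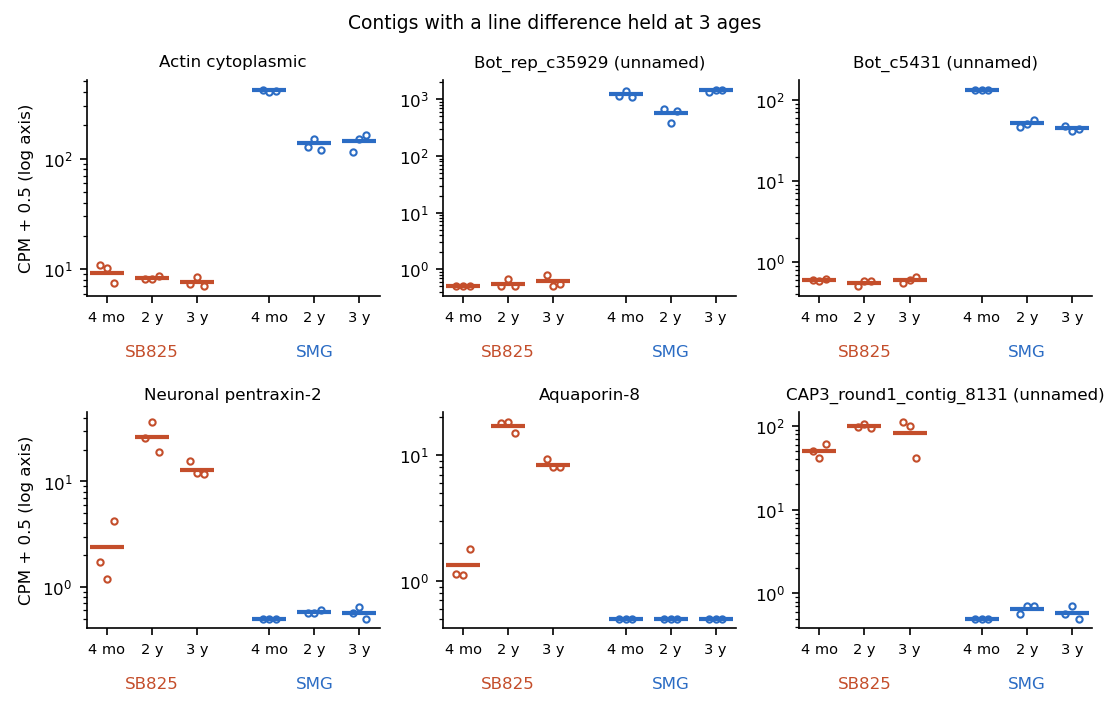
Level of 6 contigs in each library (open circles) and each colony sum (bars), as CPM + 0.5 on a log axis, for SB825 (orange) and SMG (blue) at 4 months, 2 years and 3 years; 0.5 marks a library without reads. Cytoplasmic actin, Bot_rep_c35929 and Bot_c5431 lay lower in all 9 SB825 libraries, with actin at 6.47 to 10.4 CPM against 114 to 419 CPM, while neuronal pentraxin-2, aquaporin-8 and CAP3_round1_contig_8131 lay higher.

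Other contigs higher in SB825 at every age name enzymes of the gut, matrix and metabolism. Glutamyl aminopeptidase, a peptidase of cell surfaces, had 34.5, 267 and 284 CPM at 4 months, 2 years and 3 years in SB825 in contig Bot_rep_c54104, against 0.201, 22.3 and 85.7 CPM in SMG. Its second contig, Bot_rep_c51053, had 3.31, 38.1 and 40.6 CPM in SB825, against 0, 1.63 and 15.7 CPM in SMG. In both contigs the line difference on log2(CPM + 0.5) was smallest at 3 years, and the interaction had adjusted p of 3.71e-05 and 7.19e-04 in edgeR's test. Ectonucleotide pyrophosphatase/phosphodiesterase family member 1 (Bot_rep_c36556), which splits extracellular nucleotides, had 10.1, 97.2 and 53.3 CPM in SB825, against 1.21, 10.5 and 13.9 CPM in SMG. Here the 4-month SB825 colony lay below the 3-year SMG colony, so the lines overlapped across ages although SB825 was higher at each age. Lactase-phlorizin hydrolase (CAP3_round1_contig_2943), an intestinal enzyme that splits lactose, had 27.2, 82.3 and 70.4 CPM in SB825, against 11.4, 32.3 and 21.3 CPM in SMG, a log2 fold change of 1.44 ± 0.25 (SE) with an adjusted p of 0.173 in edgeR's test. This was the smallest standard error among these 12 contigs, and the interaction with age had an adjusted p of 0.533.

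Cystathionine beta-synthase (CAP3_round1_contig_8336), which takes homocysteine towards cysteine, went the opposite way with age from the gut enzymes. It had 335 CPM at 4 months, 78.8 CPM at 2 years and 20.6 CPM at 3 years in SB825, against 138, 12.9 and 5.70 CPM in SMG, so that in both lines the 4-month colony was highest and SB825 was the higher line at each age. Cartilage intermediate layer protein 1 (Bot_c20604), a matrix protein, had 35.6, 6.41 and 1.00 CPM in SB825, against 11.5, 0.155 and 0.084 CPM in SMG. It was called between libraries at 2 years only, with adjusted p of 0.208, 0.0219 and 0.209 at 4 months, 2 years and 3 years in edgeR's test, and its log2 fold change of 3.47 ± 0.93 (SE) was 4.29 without replicate 3. Another contig of this name (Bot_c3295) had 0.291, 46.9 and 31.7 CPM in SB825, against 0.915, 5.37 and 53.2 CPM in SMG. That contig was higher in SB825 at 2 years only and was lowest at 4 months in both lines. Putative helicase Mov10l1 (Bot_c16649), known in mice for its part in the piRNA pathway of the germ line, had 1.66, 7.79 and 5.69 CPM in SB825, against 0.275, 1.81 and 1.66 CPM in SMG. Its difference was called at each age between libraries. The other 2 were a Trypsin-2 contig (Bot_rep_c50478) and Proactivator polypeptide-like 1 (CAP3_round1_contig_9707), a relative of the precursor of lysosomal saposins, with log2 fold changes of 3.98 ± 1.18 and 3.60 ± 0.85 (SE) and adjusted p of 0.276 and 0.22 in edgeR's test.

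Among contigs lower in SB825, Tubulin alpha-3E chain, a subunit of microtubules, had 4.43, 4.12 and 4.78 CPM at 4 months, 2 years and 3 years in SB825, against 115, 10.8 and 12.9 CPM in SMG. SB825 hardly varied with age, and the larger difference at 4 months came with the higher level of the 4-month SMG colony. Angiopoietin-related protein 2 (Bot_rep_c39326), a member of a family of secreted proteins that includes regulators of vertebrate vessels, had 1.28, 0.910 and 0.987 CPM in SB825, against 26.9, 17.4 and 2.03 CPM in SMG. Its log2 fold change was -3.33 ± 0.96 (SE), with an adjusted p of 0.267 in edgeR's test, and its SB825 sums did not overlap the SMG sums. A pair of cholinesterase names, enzymes that split choline esters, was lower in SB825 as well. Acetylcholinesterase (Bot_c24034) had 0.276, 1.72 and 3.95 CPM in SB825, against 1.48, 8.68 and 12.5 CPM in SMG, and Cholinesterase (Bot_c18124) had 2.15, 33.9 and 47.0 CPM in SB825, against 26.1, 100.5 and 108 CPM in SMG. Both had their lowest level at 4 months in either line. Their log2 fold changes were -2.14 ± 0.37 and -2.09 ± 0.62 (SE), with adjusted p of 0.173 and 0.275 in edgeR's test. Cholinesterase was not called between libraries at 3 years (adjusted p of 0.175 in edgeR's test). At 4 months 2196 of its 2854 SMG reads came from 1 library.

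Programmed cell death protein 5 (Bot_rep_c35773), a protein linked to apoptosis in mammalian cells, differed most at 3 years. It had 46.3, 17.8 and 0.444 CPM at 4 months, 2 years and 3 years in SB825, against 113, 31.95 and 27.6 CPM in SMG, with an adjusted p of 7.94e-12 for the interaction in edgeR's test. Cubilin (Bot_c34756), an uptake receptor of mammalian gut and kidney, had 0.261, 21.1 and 12.7 CPM in SB825, against 2.67, 56.2 and 42.6 CPM in SMG. Its difference was called between libraries at 4 months only (adjusted p of 0.075 in edgeR's test), where 288 of the 292 SMG reads came from 1 library and the other libraries had 8 and 22 reads in SB825, against 4 and 0 in SMG. Without replicate 1 the log2 fold change over ages was -0.56, with an adjusted p of 0.817, against -2.14 ± 0.50 (SE) and 0.218 with all libraries. The remaining contigs were Sushi, von Willebrand factor type A, EGF and pentraxin (Bot_c25595), Oxysterol-binding protein-related protein 6 (CAP3_round1_contig_3936), Trefoil factor 3 and Tissue-type plasminogen activator (Bot_rep_c45559), with log2 fold changes of -1.49 ± 0.34, -1.34 ± 0.28, -1.56 ± 0.47 and -1.36 ± 0.46 (SE) and adjusted p of 0.209, 0.191, 0.278 and 0.307 in edgeR's test.

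Whether the line difference depended on age was tested on the 18 libraries. In this fit the spread is that of libraries within a colony, which was small, with a common dispersion of 0.04 against 0.39 between the sums, so its calls apply to these colonies and not to the lines in general. At 4 months 24775 contigs were called (81.7%), at 2 years 20118 (66.4%) and at 3 years 18915 (62.4%). Of the calls 54.7% were higher in SB825 at 4 months, 50.9% at 2 years and 53.1% at 3 years. With library totals alone these shares were 65.0%, 86.8% and 77.5%. The interaction was called in 24733 contigs (81.6%), and in 10830 contigs when it was restricted to 2 and 3 years. In 4388 contigs the line difference was called at every age with directions that differed.

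By size, 1650 contigs (5.44%) differed 2-fold or more in one direction at one age and in the other direction at another. In 1373 of them the 4-month colonies were involved and 2 and 3 years were not opposite, and in 277 the difference turned between 2 and 3 years. Lower in SB825 at an older age and higher at 4 months was the course of 1067 contigs, and the reverse course was that of 306. In 1233 of the 1373 the 4-month SMG sum lay farther from the mean of the older SMG sums than the 4-month SB825 sum lay from that of SB825. Large differences at a single age were likewise most frequent at 4 months. A difference of 8-fold or more at one age with less than 2-fold at both others was found in 472 contigs at 4 months, in 23 at 2 years and in 43 at 3 years. Of the 472, 317 were higher in SB825.

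A turn in direction was frequent in contigs with names from testis, sperm and the axoneme, the microtubule core of flagella and cilia. Of 41 contigs on this list, which was chosen with earlier results of these data known, 16 were kept, and 12 of these differed 2-fold in opposite directions at 2 ages, against 5.44% of all contigs and 109 of the 593 named contigs (18.4%). At 4 months 13 of 16 were called higher and 0 lower in SB825, at 2 years 15 were called lower and 0 higher, and at 3 years 15 were called lower and 0 higher, in edgeR's test between libraries. Of all contigs 81.7%, 66.4% and 62.4% were called at 4 months, 2 years and 3 years, so the share called at 4 months was near that of all contigs. Of all calls 54.7%, 50.9% and 53.1% were higher in SB825 at these ages. The median log2 difference was 2.21 at 4 months, -1.65 at 2 years and -2.24 at 3 years, against 0.09, -0.02 and -0.01 over all contigs. The directions were the same with median-of-ratios factors and with library totals. The summed level of the 16 contigs was 90.6, 208 and 80.9 CPM in SB825, against 5.03, 701 and 462 CPM in SMG. The SB825 sums thus lay between 80.9 and 208 CPM, and SMG lay above them at 2 and 3 years and below them at 4 months. SMH had 9.20, 244 and 242 CPM. A single SB825 library stood apart at 3 years, with 149 CPM against 41.3 and 52.2 CPM in the others, and all 3 lay below the 424 to 487 CPM of the SMG libraries.

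Testis-specific serine/threonine-protein kinase 1, a kinase of developing sperm in mammals, was represented by 2 contigs. Bot_rep_c35291 had 6.22 CPM at 4 months, 12.5 CPM at 2 years and 7.92 CPM at 3 years in SB825, against 0.146, 82.3 and 64.8 CPM in SMG. Bot_rep_c45338 had 29.3, 69.3 and 19.8 CPM in SB825, against 0.531, 154 and 124 CPM in SMG. Fibrous sheath-interacting protein 2 (CAP3_round1_contig_4558), a protein of the sperm tail, had 22.5, 46.7 and 16.8 CPM in SB825, against 1.48, 137 and 87.3 CPM in SMG. The same SB825 library stood apart at 3 years in each, as in Bot_rep_c35291 with 3.02, 4.10 and 16.6 CPM against 60.8 to 67.7 CPM in SMG. In all 3 contigs the 4-month SMG colony was the lowest of the 6 and the older SMG colonies were the highest. MORN repeat-containing protein 5 (Bot_rep_c35521) had 3.44, 10.9 and 3.70 CPM in SB825, against 0.037, 34.6 and 30.2 CPM in SMG. The exceptions on the list, 4 of 16, were a pair of dynein heavy chain 7 contigs, a dynein heavy chain 17 contig and a Tctex1 domain contig, which lay within 2-fold between the lines at 4 months. The Tctex1 domain-containing protein 1 contig (CAP3_round1_contig_5650), chosen after its values were seen, had 0.29, 1.103 and 0.49 CPM in SB825, against 0.18, 23.6 and 15.5 CPM in SMG.

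Other named contigs with the strongest turns followed the same course. Otoancorin (CAP3_round1_contig_9042), which the study places in gonads or germline precursors, had 26.8, 53.4 and 20.1 CPM at 4 months, 2 years and 3 years in SB825, against 0.878, 281 and 140 CPM in SMG. Protein Hook homolog 3 (Bot_c9), a linker of cargo to microtubules, had 9.66, 20.8 and 9.57 CPM in SB825, against 0.659, 150 and 68.2 CPM in SMG. Enhancer of rudimentary homolog (Bot_rep_c56477) had 4.18, 2.56 and 2.24 CPM in SB825, against 0.055, 17.7 and 16.5 CPM in SMG. For these and the other strongest turns, 8 contigs in all, the interaction had adjusted p from 1.3e-11 to 0.00438 in edgeR's test over 3 ages, and from 0.167 to 0.965 when only 2 and 3 years were compared. The 8 were picked by their turn in these same libraries, so the test over 3 ages is not independent evidence. A Trypsin-2 contig (Bot_rep_c48453) differed from the rest of the 8, with 4.10, 75.1 and 63.5 CPM in SB825, against 0, 59.4 and 393 CPM in SMG, so that the lines differed little at 2 years, and its interaction had an adjusted p of 0.107 without replicate 1. Aldehyde dehydrogenase, mitochondrial (CAP3_round1_contig_7882), which oxidizes aldehydes and belongs to no gonad list, had 28.3, 22.7 and 24.5 CPM in SB825, against 10.3, 99.8 and 115 CPM in SMG. The part of gonad content in these differences was not tested.

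**Figure D4:**
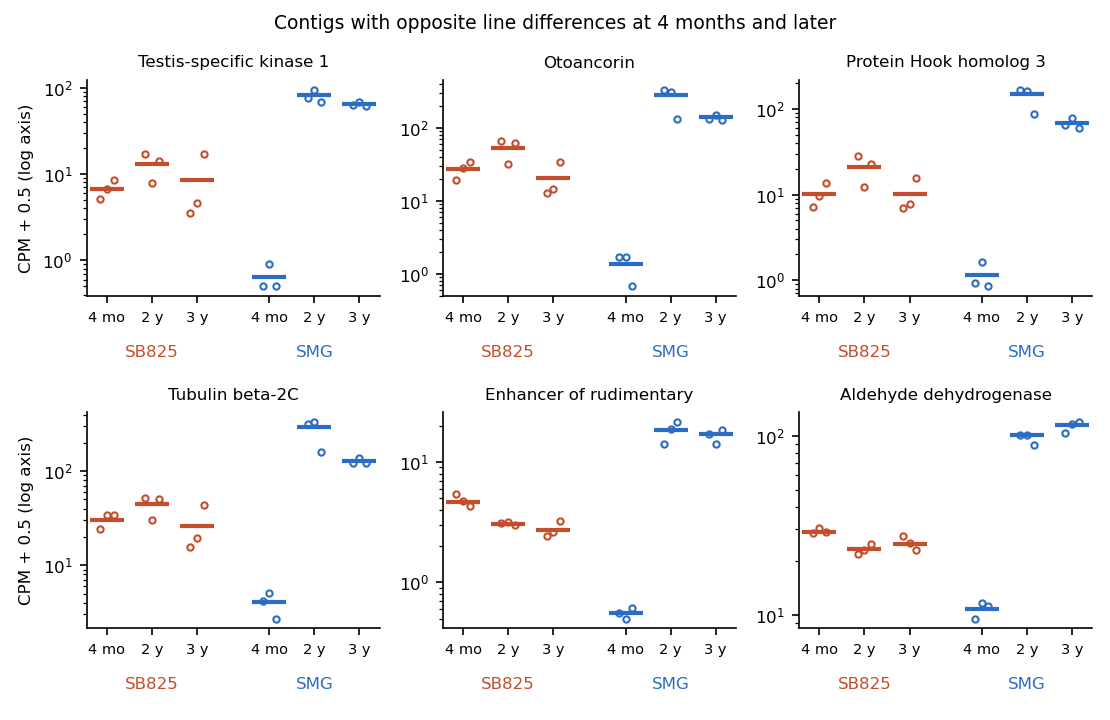
Level of 6 contigs in each library (open circles) and each colony sum (bars), as CPM + 0.5 on a log axis, for SB825 (orange) and SMG (blue) at 4 months, 2 years and 3 years. In each panel the 4-month SMG colony is the lowest and the 2 older SMG colonies are the highest, as for testis-specific kinase 1 at 0.146 CPM against 82.3 and 64.8 CPM, with SB825 between them at every age.

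Tubulin contigs divided by age course. A Tubulin beta-2C contig (CAP3_round1_contig_6873) had 30.0, 43.8 and 25.7 CPM at 4 months, 2 years and 3 years in SB825, against 3.55, 291 and 129 CPM in SMG, like the testis contigs. The Tubulin beta-2C contigs CAP3_round1_contig_6824 and CAP3_round1_contig_9496, named after their values were seen, had the same course, with 28.2 and 20.3 CPM in the 4-month SB825 colony, against 4.04 and 1.21 CPM in that of SMG. Another Tubulin beta-2C contig (Bot_rep_c57029) went the other way, with 31.1, 26.5 and 24.3 CPM in SB825, against 114, 12.0 and 20.3 CPM in SMG. Tubulin alpha-3C/D (CAP3_round1_contig_7678) had 30.8, 30.96 and 31.9 CPM in SB825, against 609, 43.4 and 55.9 CPM in SMG. Tubulin alpha-1A (Bot_rep_c58495) had 30.6, 25.6 and 29.3 CPM in SB825, against 156, 17.9 and 22.2 CPM in SMG. In each of these 3 contigs SB825 varied little with age, and the 4-month SMG colony was the highest of the 6. The tubulins and actins, together with the other muscle and cytoskeleton names, made a list of 22 kept contigs of 28, of which 0 were 2-fold higher and 2 lower in SB825 at all ages and 7 turned direction, against 3.74% of all contigs lower at all ages and 5.44% turning, or 18.4% of the named contigs. Its median log2 difference was 0.14 at 4 months, -0.69 at 2 years and -0.34 at 3 years, and the last 2 were positive with library totals alone.

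Tubulin alpha-1A, alpha-3C/D, alpha-3E and beta-2C (Bot_rep_c57029), cytoplasmic actin and Programmed cell death protein 5 belong to the 10 contigs that the study listed as changing most with age apart from fertility, of which 9 were kept and Caspase 2 was not. At 4 months 8 of 9 were called lower and 0 higher in SB825, at 2 years 4 were lower and 3 higher, and at 3 years 5 were lower and 4 higher, where 81.7%, 66.4% and 62.4% of all contigs were called. The study chose them on these samples, so their age course is not independent evidence. The median log2 difference was -2.23 at 4 months, -0.12 at 2 years and -0.41 at 3 years, and the last 2 were positive with library totals alone. Collagen alpha 1 (II) chain (CAP3_round1_contig_8075), a fibrillar collagen of the extracellular matrix, had 121, 139 and 125 CPM in SB825, against 572, 151 and 166 CPM in SMG. Actin related protein 2/3 (Bot_rep_c48230), which starts branched actin filaments, had 81.2, 76.7 and 52.4 CPM in SB825, against 270, 43.7 and 45.5 CPM in SMG. In SB825 the collagen varied little with age, while Actin related protein 2/3 was lower at 3 years than at the other ages. Both were highest in the 4-month SMG colony. Cell division cycle protein 23 (Bot_rep_c37856), a subunit of the anaphase-promoting complex, was the exception, with 9.53, 3.79 and 5.13 CPM in SB825, against 10.6, 3.54 and 3.29 CPM in SMG.

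**Figure D5:**
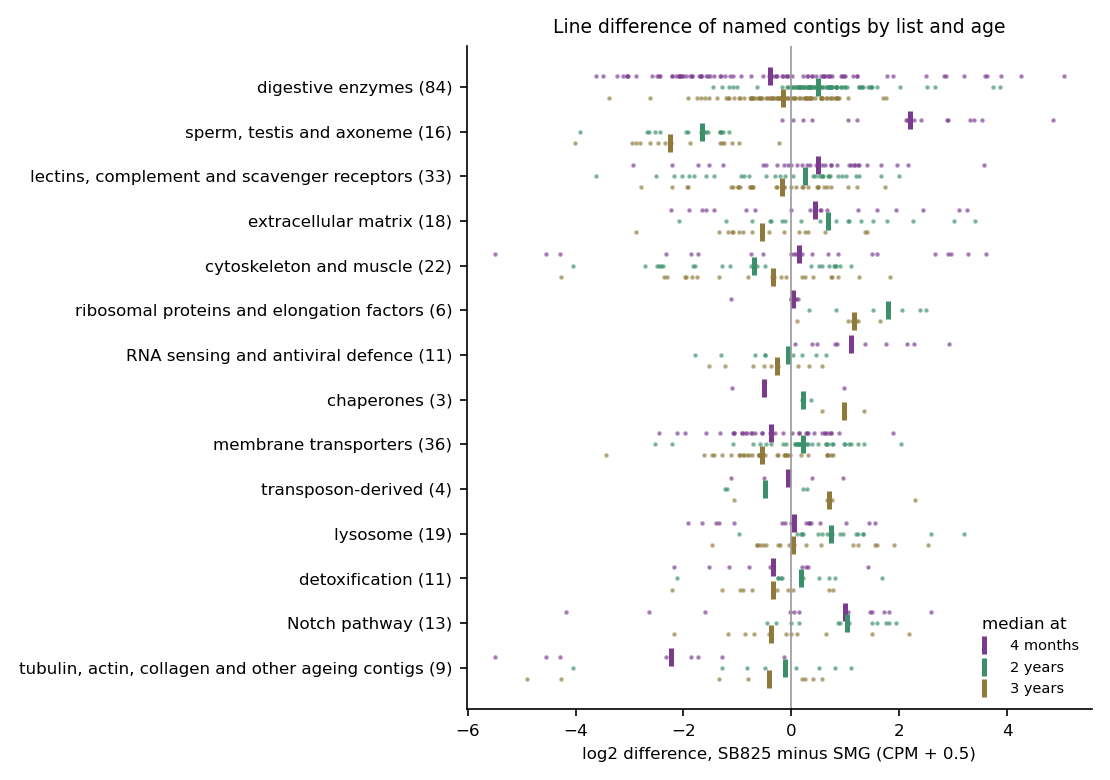
Log2 difference, SB825 minus SMG, of CPM + 0.5 (x axis) for each kept contig (dots) of 14 lists of names, with the median (bars) at 4 months (purple), 2 years (green) and 3 years (ochre); the number of contigs is in brackets. The testis and sperm list has medians of 2.21, -1.65 and -2.24, and the 9 kept ageing contigs listed by the study have a median of -2.23 at 4 months.

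Components of the Notch pathway, in which jagged ligands on one cell bind Notch receptors on another, differed among themselves. Of 14 contigs on the list 13 were kept, and 1 was 2-fold higher and 0 lower in SB825 at all ages. At 4 months 7 were called higher and 3 lower in SB825, at 2 years 9 higher and 0 lower, and at 3 years 2 higher and 5 lower, together near the 81.7%, 66.4% and 62.4% of all contigs called. The median log2 difference was 1.00, 1.03 and -0.38, and the last was positive with library totals alone. Neurogenic locus notch homolog protein 1 (CAP3_round1_contig_9441), named with the next contig after their values were seen, had 223, 15.8 and 1.14 CPM in SB825, against 63.5, 4.31 and 1.64 CPM in SMG. Neurogenic locus notch homolog protein 3 (CAP3_round1_contig_9029) had 180, 12.9 and 1.68 CPM in SB825, against 54.2, 3.33 and 0.90 CPM in SMG. These receptors were highest at 4 months in both lines, and SB825 was the higher line at 4 months and 2 years. Protein jagged-1 (CAP3_round1_contig_5371) had the reverse age course, with 1.64, 166 and 326 CPM in SB825, against 38.4, 88.9 and 738 CPM in SMG, and Neurogenic locus notch homolog protein 2 (CAP3_round1_contig_6397) had 33.4, 133 and 155 CPM in SB825, against 102, 73.3 and 252 CPM in SMG. Both were lower in SB825 at 4 months and 3 years and higher at 2 years.

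Digestive enzymes, made by gut and gland cells, passed the test between lines in few contigs. Of 92 contigs 84 were kept, of which 2 were 2-fold higher and 0 lower in SB825 at all ages. At 4 months 14 were called higher and 16 lower in SB825, at 2 years 6 higher and 3 lower, and at 3 years 2 higher and 7 lower, against 81.7%, 66.4% and 62.4% of all contigs called. The median log2 difference was -0.39, 0.49 and -0.16, and the last was positive with library totals alone. Their summed level was 654 CPM at 4 months, 7185 CPM at 2 years and 5690 CPM at 3 years in SB825, against 1969, 4266 and 6915 CPM in SMG, so that in both lines the 4-month colony was the lowest. At 4 months the lines overlapped, with library sums of 400 to 1058 CPM in SB825 and 311 to 4699 CPM in SMG. Chymotrypsinogen B2, a pancreatic protease in vertebrates, had 31.5, 553 and 481 CPM in SB825 in its most abundant contig (CAP3_round1_contig_8388), against 135, 278 and 373 CPM in SMG, and libraries of one colony varied widely, with 62.6 to 845 CPM in the 3-year SB825 colony and 1.103 to 378 CPM in the 4-month SMG colony. Chymotrypsinogen B (Bot_rep_c45460) stood out at 2 years, with 11.3, 182 and 49.2 CPM in SB825, against 12.8, 28.3 and 38.5 CPM in SMG, but its difference there had an adjusted p of 0.141 in edgeR's test. A Trypsin-2 contig (Bot_rep_c51149) differed at 4 months, with 16.02, 232 and 194 CPM in SB825, against 0, 183 and 329 CPM in SMG.

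Names linked to RNA sensing and antiviral defence were mostly higher in SB825 at 4 months. Of 17 contigs 11 were kept, and at 4 months 10 were called higher and 0 lower in SB825, while at 2 years 2 were higher and 5 lower and at 3 years 1 was higher and 4 lower. Of all contigs 81.7%, 66.4% and 62.4% were called at these ages, so the share called was not far from that of all contigs at 4 months. The median log2 difference was 1.11 at 4 months, -0.07 at 2 years and -0.27 at 3 years, the values at 2 and 3 years being positive with library totals alone. RNF213 (CAP3_round1_contig_5735), a ubiquitin ligase known in humans as a risk gene for a vessel disease, had 18.4, 29.9 and 43.1 CPM in SB825, against 2.00, 18.9 and 28.7 CPM in SMG. An NFX1-type zinc finger contig (Bot_c16014) had 3.40, 7.42 and 6.53 CPM in SB825, against 0.311, 10.5 and 10.9 CPM in SMG. In both contigs the 4-month SMG colony was the lowest of the 6. Neuropilin-2 (Bot_rep_c47078), a receptor of nerve and vessel guidance in vertebrates, differed in the same way, with 16.4, 24.9 and 21.6 CPM in SB825, against 0.018, 24.9 and 43.5 CPM in SMG, and Serine/threonine-protein kinase 11 (Bot_rep_c35531), a kinase upstream of energy sensing, had 13.0, 56.2 and 47.4 CPM in SB825, against 0.110, 49.7 and 81.0 CPM in SMG. The low level at 4 months was not particular to SMG in these last contigs. SMH had 0.686, 1.48 and 41.45 CPM for Neuropilin-2 and 0.053, 51.8 and 51.7 CPM for Serine/threonine-protein kinase 11.

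Ribosomal proteins, the building blocks of ribosomes, were few among the named contigs that were kept. Since most kept contigs had no name, their number among all kept contigs is not known. Of 33 contigs with ribosomal or elongation factor names 6 were kept, and at 2 years all 6 were called higher in SB825, against 2 at 3 years and 0 at 4 months, where 1 was lower, and the shares of all contigs called were 66.4%, 62.4% and 81.7%. The median log2 difference was 0.04 at 4 months, 1.78 at 2 years and 1.16 at 3 years. The most abundant, 40S ribosomal protein S21 (CAP3_round1_contig_5268), had 7724 CPM at 4 months, 6634 CPM at 2 years and 5543 CPM at 3 years in SB825, against 16819, 3730 and 1782 CPM in SMG. SB825 stayed within a narrow range, while in SMG the 4-month colony was the highest of the 6 and the 3-year colony the lowest. The contigs for 40S ribosomal proteins S2, S5, S7 and S17 were near 0 at 4 months in both lines, a pattern unlike that of S21. The median of the list at 4 months therefore rests mostly on contigs near 0.

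The remaining lists held contigs called in both directions, and their counts stand against 81.7%, 66.4% and 62.4% of all contigs called at 4 months, 2 years and 3 years. Of 33 kept contigs for lectins, complement and scavenger receptors, 13 were called higher and 6 lower in SB825 at 4 months, 11 higher and 11 lower at 2 years, and 3 higher and 13 lower at 3 years, with medians of 0.49, 0.25 and -0.18. Stabilin-2 (CAP3_round1_contig_9123), a scavenger receptor of vertebrate endothelium, had 16.5, 137 and 332 CPM in SB825, against 9.72, 562 and 659 CPM in SMG. Another Stabilin-2 contig (Bot_rep_c48355) had 16.443, 68.233 and 78.844 CPM in SB825, against 47.985, 45.748 and 130.128 CPM in SMG. These contigs differed in opposite directions at 4 months and 2 years, and both were lower in SB825 at 3 years. Of 18 extracellular matrix contigs 9, 8 and 1 were called higher in SB825 at 4 months, 2 years and 3 years, and 5, 3 and 9 were called lower, with medians of 0.43, 0.68 and -0.55. Collagen alpha-1(XII) chain (Bot_c25049), a collagen bound to fibrils, differed at 3 years, with 0.160, 1.21 and 2.12 CPM in SB825, against 0.165, 0.465 and 18.7 CPM in SMG. Of 36 membrane transporters 7, 8 and 3 were called higher and 13, 5 and 11 lower, and of 19 lysosomal contigs 4, 7 and 5 were called higher and 4, 1 and 1 lower, in the same order of ages. Their medians were -0.37, 0.21 and -0.55 for transporters and 0.04, 0.74 and 0.04 for lysosomal contigs. Excitatory amino acid transporter 3 (Bot_rep_c35177) had 4.95, 83.0 and 161 CPM in SB825, against 29.5, 35.1 and 101 CPM in SMG. Proactivator polypeptide (CAP3_round1_contig_6910), the precursor of lysosomal saposins, had 27.0, 248 and 160 CPM in SB825, against 85.8, 98.0 and 156 CPM in SMG. At 4 months 6750 of its 9380 SMG reads came from 1 library, and the libraries of the lines overlapped. Sulfotransferase 1C4 (Bot_c9565), a conjugating enzyme and one of 11 detoxification contigs, was high at 4 months in both lines, with 405, 6.73 and 5.62 CPM in SB825, against 513, 8.11 and 7.21 CPM in SMG, and the lines did not pass the test at any age (adjusted p of 0.602 to 0.781 in edgeR's test between libraries). Of the 11, 1, 2 and 1 were called higher in SB825 at 4 months, 2 years and 3 years and 5, 1 and 4 lower, with medians of -0.34, 0.19 and -0.33. Of 3 chaperones, 1, 1 and 3 were called higher and 2, 0 and 0 lower, with medians of -0.50, 0.21 and 0.98, and of 4 transposon-derived contigs 2, 2 and 3 were called higher and 2, 2 and 1 lower, with medians of -0.06, -0.49 and 0.70. With library totals alone the sign of the median changed for lectins at 3 years, for transposon-derived contigs at 4 months and 2 years, and for none of the extracellular matrix, transporter, lysosomal, detoxification and chaperone medians.

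Lines without overlap over the 3 ages, that is with all SB825 sums above or below all SMG sums, were found in 9488 contigs (31.3%), 5108 with SB825 above and 4380 with SB825 below. Of the 30 contigs described above for a difference of one sign at all ages, cytoplasmic actin, aquaporin-8, the neuronal pentraxins Bot_c21592, Bot_c4886 and Bot_rep_c35654, Tubulin alpha-3E and Angiopoietin-related protein 2 were among them, as were the 6 unnamed contigs near presence or absence.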

How the data were processed

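RNA was sequenced from whole colonies (Illumina, polyA libraries). The authors trimmed the first bases of the reads, mapped read pairs to an assembly of expressed sequences with Bowtie 0.12.7 and SAMtools 0.1.18 and deposited raw counts for 50106 contigs. Every count is even, so 1 read pair counts as 2 reads. A deposited table of the authors' own fold changes and p-values was not used. The 3 libraries of each colony were added up, and contigs with 1 CPM in 3 of 6 sums were kept. Line differences were tested with edgeR 4.0.16 (R 4.3.3) quasi-likelihood fits, TMM factors and a 10% Benjamini-Hochberg false discovery rate: the sums with age and line, and the 18 libraries with a mean per colony for each age and the interaction. The separate libraries of a colony need not be separate cultures, so p-values in the second fit measure the spread between libraries. Alternatives used DESeq2 1.42.0 and limma 3.58.1, other scalings and filters, a replicate block and libraries or replicates left out; leaving out ages for the counts by fold and for the interaction was added after seeing the data. Named contigs were those with a homolog name and 5 CPM in a sum: the 12 in each direction by smallest difference over ages, the 3 in each direction with or without a name, the 8 with the strongest turn, 4 for each age, the study's 10 ageing contigs and the 2 most abundant of each list. Lists were patterns on names: digestive, sperm, lectin, matrix, cytoskeleton, ribosomal, RNA sensing, chaperone, transporter, transposon, lysosome, detoxification and Notch. Comparisons, members and lists were chosen with earlier results of these data known. Same-numbered libraries had deviations correlated from -0.44 to 0.31 across colonies, so the numbers did not pair them.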

Additional observations from a re-analysis of the deposited data

Results flagged for a closer look

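The line difference depended on age in 24733 of 30308 contigs by edgeR's interaction test on 18 libraries, with the spread of libraries within colonies. The 8 named contigs with the strongest turns passed it as well. They were picked for opposite line differences in these same libraries, and 81.6% of all contigs passed, so their passing is not independent evidence.

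Testis-specific serine/threonine-protein kinase 1 had adjusted p of 3.56e-05 (Bot_rep_c35291) and 6.31e-05 (Bot_rep_c45338), MORN repeat-containing protein 5 of 4.13e-06, Protein Hook homolog 3 of 2.68e-06, Otoancorin of 5.99e-06, Tubulin beta-2C (CAP3_round1_contig_6873) of 2.46e-06, Enhancer of rudimentary homolog of 1.3e-11 and Trypsin-2 (Bot_rep_c48453) of 0.00438, all from edgeR. SB825 was higher at 4 months in all 8 and lower at 3 years in all 8. Between 2 and 3 years alone the adjusted p ran from 0.167 to 0.965, so each call rests on the 4-month colonies. Groups of 3 libraries were too small for the check of single samples far from the others.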

How the results depend on the processing

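The count of contigs called for a line difference over ages, 0 in edgeR on 6 sums, was 5120 with DESeq2, 550 with library totals, 1815 without the age term, 2379 with all 9 sums, 7619 with limma and colonies as a random block, and 0 to 1510 with each age left out, the highest without 4 months. With 18 separate libraries it was 18255, and 17449 with a replicate block, but both take libraries of 1 colony as independent. The interaction, 24733 contigs, was 24559 with the replicate block and 10830 to 22318 with an age left out and 21402 to 23625 without a replicate. Contigs 2-fold the same way at every age, 2672, numbered 1508 with a pseudocount of 2 and 3676 to 4827 over the other 2 ages, and 2638 to 2757 with each replicate left out. Contigs 2-fold in opposite directions, 1650, numbered 843 with a pseudocount of 2, 277 to 1130 over 2 ages and 1618 to 1926 without a replicate. Of the calls over ages 867 were higher and 948 lower in SB825 without the age term, against 2869 and 2251 with DESeq2. Among 30 contigs recomputed for the line no sign of the line difference was reversed. These were picked for one sign at every age in these same libraries, so this is not independent evidence. For the 20 recomputed for the interaction only the call was compared, not the sign. Of the alternatives for line differences 293 stayed on their side of the threshold and 157 passed it, and for interactions 200 stayed and 20 lost the call. With 1 colony per line and age, the 6 sums limit what can be said of the lines, and line and colony cannot be told apart.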
